A study of Mus musculus with 14 samples.

Results

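The genes described here carry the interferon signal inside the cell and hold it in check: the RNA sensors Ifih1 and Ddx58, the signalling factors Stat2, Irf9, Irf7 and Irf1, and the feedback genes Usp18 and Socs1. Their probe sets were those whose platform annotation names 1 of 9 listed genes and no other gene. The rule gave 11 probe sets of 8 genes, out of 45037 probe sets that are not controls and 18193 genes named in that way. Isg15, the ninth listed gene, was on the array only as a probe set annotated with a second gene, and no value is given for it. Ddx58 had 3 probe sets, Stat2 had 2, and the others had 1 each.

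The cells were SCp2, a single mouse mammary epithelial cell line. All dishes, controls included, held DMEM with 2% fetal calf serum, and RNA was taken after 3 days. In experiment A, 3 dishes were treated with MMP-3 (matrix metalloproteinase 3, an extracellular enzyme that degrades matrix and sheds proteins from cell surfaces) and 3 were controls, at 50K, 100K and 250K cells plated per 35 mm dish. In experiment B, 4 dishes had MMP-3 and 4 were controls, at 25K, 50K, 100K and 250K. MMP3 below stands for the treated dishes. Each dish gave 1 array, 14 in all, so each combination of agent and density had 1 array in an experiment. Nothing in the labels says whether dishes came from separate cultures, so the spread behind a p-value may be technical. In RNA of a whole dish, more cells with an RNA and more of it per cell cannot be told apart.

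When a cell senses foreign RNA, Ifih1 (also called MDA5) and Ddx58 (RIG-I) start a cascade that ends in the making of interferons. Secreted interferons bind receptors, and type I interferons act through a complex that holds Stat2 and Irf9 and binds a promoter element called the ISRE, while interferon gamma acts on the GAS element. The induced genes include the sensors and the factors themselves, so the circuit amplifies itself, and Usp18 and Socs1 damp it at the receptor.

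The promoter letters that those complexes read are shown for the members whose RefSeq promoter holds them (build GRCm38.p6, from 250 bases before the gene start to 50 bases after it). Promoters were given for 8 of the 9 listed genes, all but Usp18, as 10 sequences. The ISRE core was searched as GAAA, any 2 bases and GAAA again, and the GAS as TTCNNNGAA, on both strands. Each line runs 5′ to 3′ along the gene, and capitals mark the matched letters.
Ifih1, chr2:62646206-62646233, minus strand: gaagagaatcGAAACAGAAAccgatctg
Ddx58, chr4:40239804-40239833, minus strand: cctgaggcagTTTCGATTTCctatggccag
Isg15, chr4:156200871-156200900, minus strand: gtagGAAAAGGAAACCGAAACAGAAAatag
Stat2, chr10:128270266-128270295, plus strand: cgcaccctggTTTCAGTTTCctttccctag
Irf1, chr11:53769914-53769942, plus strand: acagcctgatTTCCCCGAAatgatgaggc
Socs1, chr16:10785597-10785626, minus strand: cttgccgGAAAGAGAAACCGAAAgcggggg

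The Isg15 stretch held 3 overlapping ISRE cores, 78 to 57 bases before the start. The Socs1 stretch held 2 overlapping cores, 83 to 68 bases before the start, and the Stat2 core lay 222 to 213 bases before it. In Irf1 the match was a GAS, 90 to 82 bases before the start. The Ifih1 and Ddx58 cores lay after the start, at bases 33 to 42 and 3 to 12 of the transcript. In the 250 bases before the start, the ISRE core stood in 3 of the 8 genes (Stat2, Isg15 and Socs1), against 2.98% of 32851 mouse promoters. Over the whole 300 bases, a window added after matches past the start were seen, it stood in 5 of the 8 genes, against 3.44%. The GAS stood in 1 of the 8 genes before the start, against 7.02% of promoters. A match of letters is a description and not a measured binding site.

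Values below are relative log2 expression. Each probe set has its median over the 14 arrays at 0, so a value says how an array stands against the others and not how much RNA was there. The spread of values on an array (SD over probe sets) ran from 0.232 to 0.869 and was widest on the MMP3 100K array of experiment B. The arrays of experiment B must be described before any comparison, because they did not order by agent. For Usp18, 7 of the 14 arrays lay between 2.83 and 5.70 and the other 7 between -2.86 and -2.83. In experiment A the high arrays were the 3 MMP3 arrays. In experiment B the high arrays were those labelled 50K and 250K, of both agents, and the low arrays those labelled 25K and 100K, of both agents. Of the 6 labels used in both experiments, Usp18 stood on the same side of 0 for 3 (MMP3 50K, MMP3 250K and control 100K). It stood on opposite sides for MMP3 100K, at 4.43 in A and -2.83 in B, for control 50K, at -2.84 in A and 3.56 in B, and for control 250K, at -2.85 in A and 4.98 in B. Those same 7 arrays were the 7 highest for 7 of the 11 member probe sets, including Usp18, from which they were taken. The share of all probe sets with these 7 highest arrays was not counted. What sets the arrays of experiment B apart was not tested. The labels were used as given; whether some of them are exchanged between dishes of experiment B was not tested, and an exchange would change the meaning of each MMP3 and control comparison that uses these arrays. The experiments are therefore given separately.

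**Figure D1:**
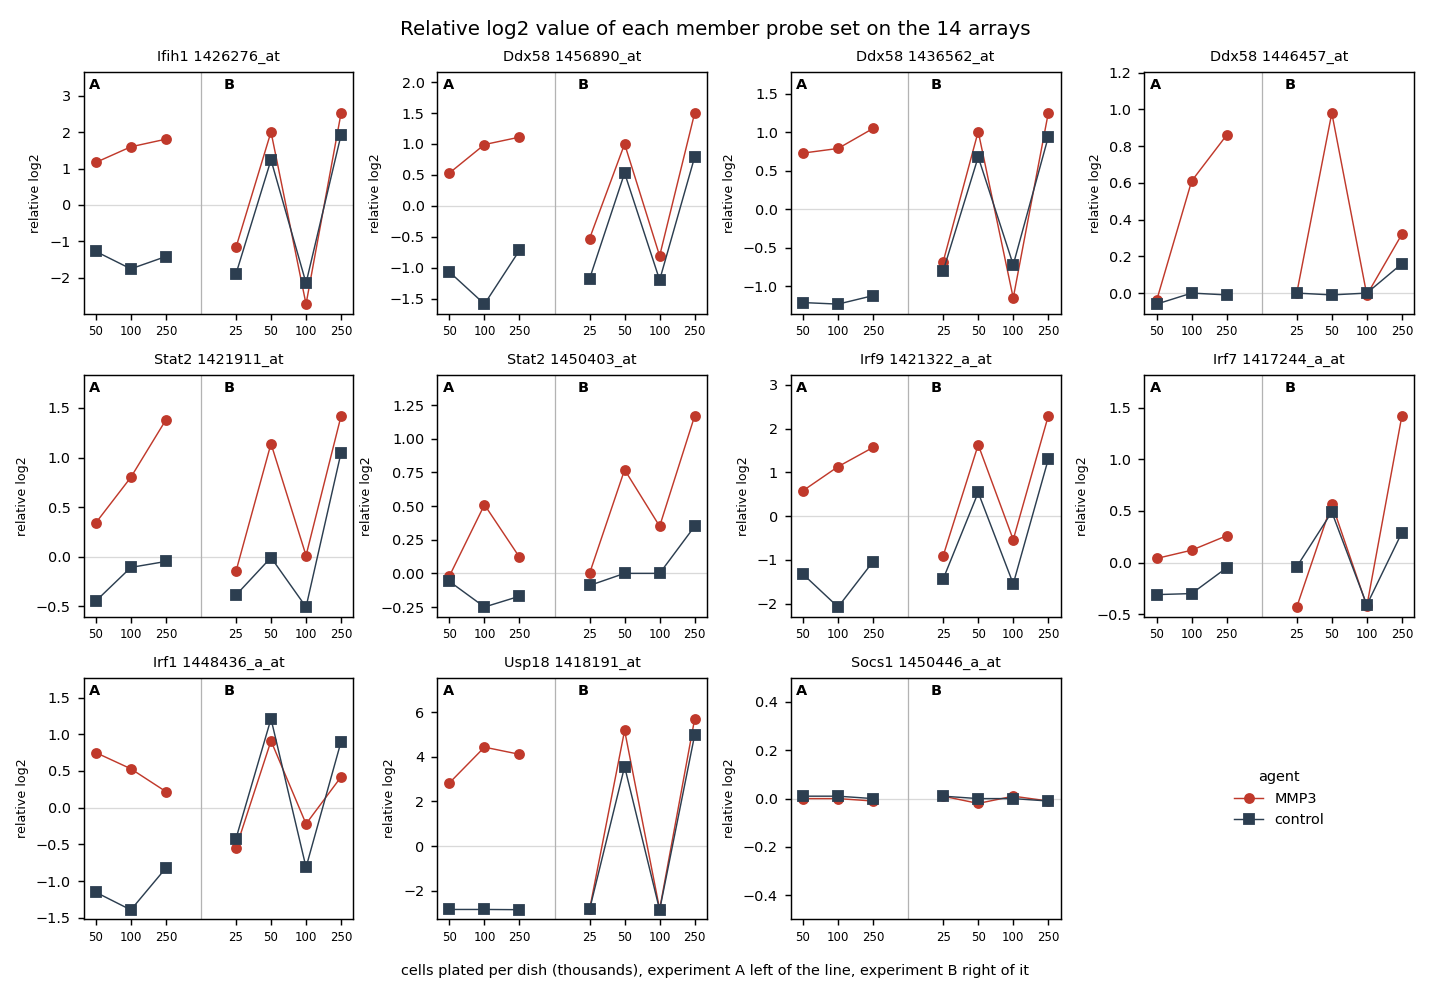
Relative log2 expression (vertical axis) of each member probe set on each of the 14 arrays, by cells plated (horizontal axis), with agent and experiment marked. In experiment A the MMP3 arrays of Usp18, Ifih1, Irf9 and the first 2 Ddx58 probe sets lie above the controls; in experiment B the 50K and 250K arrays of both agents lie above the 25K and 100K arrays.

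The question in each experiment is whether MMP3 changed these genes once plated density is allowed for. In experiment A it did so for 6 of the 11 probe sets, all of them higher with MMP3: Usp18, Ifih1, Irf9, Irf7 and 2 of the 3 for Ddx58 (limma, Benjamini-Hochberg adjusted p under 0.05). Among all probe sets, 5.58% passed in experiment A, 1448 higher and 1067 lower. The median change of the members was 1.62 on the log2 scale, against -0.018 for all probe sets, and 10 of 11 were above 0, against 26.8% of all probe sets. On 9 of the 11, every MMP3 array stood above every control array, which 10.0% of all probe sets showed. On 1, Socs1, every MMP3 array stood below every control array, which 43.5% of all probe sets showed. Separation by agent was thus common over the whole array in experiment A, and more often downward. The downward share counts flat probe sets such as Socs1, whose change was -0.01. Array medians were -0.009 to -0.001 with MMP3, against 0.001 to 0.016 in controls. Neither the separated shares nor the 26.8% were recomputed on re-centred arrays. Called probe sets were more often higher than lower, also with arrays re-centred on their medians (1225 higher and 719 lower). The call depends on single arrays, for members and for the array as a whole. Without the control 50K or the control 100K array no member passed, and 0 of all probe sets did. Leaving out any other array of the experiment left 1 to 3 members, and 72 to 1079 of all probe sets. With density as a factor, which pairs the dishes of each density, 2 of the 11 passed, Usp18 (limma adjusted p = 0.0498) and Ddx58 1436562_at (0.028), against 2.23% of all probe sets. The other 4 did not pass in that paired fit: Ifih1 had an adjusted p of 0.0625, Irf7 of 0.0592, Irf9 of 0.0962 and Ddx58 1456890_at of 0.0971.

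Among the sensors, Ifih1, which detects long double-stranded RNA, stood at 1.17, 1.60 and 1.81 on the MMP3 arrays of experiment A (50K, 100K and 250K), against -1.28, -1.76 and -1.42 on the control arrays. The groups did not overlap, and MMP3 was higher by 3.01 on the log2 scale (SE 0.219), or 8.06-fold, with a limma adjusted p of 0.0196 (0.0625 with paired dishes). In experiment B, Ifih1 stood at -1.17, 2.01, -2.73 and 2.53 on the MMP3 arrays (25K, 50K, 100K and 250K), against -1.90, 1.24, -2.15 and 1.93 on the control arrays. The groups overlapped almost wholly, and MMP3 was above its control at 3 of 4 densities, by 0.60 to 0.77, and below it at 100K. Its lowest and its highest array were both MMP3 arrays of experiment B.

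Ddx58 detects short RNA with a 5′ triphosphate. Its most variable probe set, 1456890_at, stood at 0.53, 0.99 and 1.11 on the MMP3 arrays of experiment A, against -1.07, -1.59 and -0.72 on the control arrays. A second, 1436562_at, stood at 0.73, 0.79 and 1.05 with MMP3, against -1.21, -1.23 and -1.12 in controls. These probe sets gave nearly the same change, 2.00 (SE 0.245; 4.01-fold; limma adjusted p = 0.0401, or 0.0971 with paired dishes) and 2.05 (SE 0.060; 4.13-fold; adjusted p = 0.00925). The third, 1446457_at, stood at -0.04, 0.61 and 0.86 with MMP3, against -0.06, 0.00 and -0.01 in controls, and did not pass (0.50, SE 0.200, limma adjusted p = 0.193). Only the MMP3 100K and 250K arrays of experiment A and the 50K and 250K MMP3 arrays and the 250K control of experiment B lay above 0.1 for it. Over the 14 arrays the first 2 probe sets had a Pearson r of 0.97 with each other and of 0.66 and 0.68 with the third. In experiment B, 1456890_at stood at -0.53, 1.0, -0.81 and 1.5 with MMP3, against -1.18, 0.53, -1.20 and 0.79 in controls, and MMP3 was the higher of the pair at all 4 densities, by 0.39 to 0.71. Probe set 1436562_at stood there at -0.68, 1.01, -1.15 and 1.25 with MMP3, against -0.80, 0.68, -0.72 and 0.94 in controls, and its MMP3 array was the lower of the pair at 100K. The third stood there at 0.00, 0.98, -0.01 and 0.32 with MMP3, against 0.00, -0.01, 0.00 and 0.16 in controls, so that its widest gap between agents in that experiment was at 50K.

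Stat2 and Irf9 act together in the type I interferon complex. Irf9, its DNA-binding part, stood at 0.58, 1.13 and 1.57 on the MMP3 arrays of experiment A, against -1.33, -2.08 and -1.04 on the control arrays. It was higher with MMP3 by 2.58 (SE 0.334), or 5.98-fold, with a limma adjusted p of 0.0436 (0.0962 with paired dishes). In experiment B it stood at -0.91, 1.63, -0.54 and 2.29 with MMP3, against -1.44, 0.54, -1.55 and 1.30 in controls. MMP3 was the higher of the pair at all 4 densities, by 0.52 to 1.09, which is less than the gap between the high and the low arrays of either agent.

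For Stat2, which carries the activating part of the complex, probe set 1421911_at stood at 0.34, 0.80 and 1.38 on the MMP3 arrays of experiment A, against -0.45, -0.11 and -0.05 on the control arrays. The groups did not overlap, yet the change of 1.04 (SE 0.152) missed the threshold (limma adjusted p = 0.0531). The other probe set, 1450403_at, stood at -0.02, 0.51 and 0.12 with MMP3, against -0.06, -0.25 and -0.17 in controls. It had a smaller change of 0.36 (SE 0.173, limma adjusted p = 0.198), and its 50K dishes differed by 0.05. In experiment B, 1421911_at stood at -0.15, 1.14, 0.01 and 1.42 with MMP3, against -0.39, -0.01, -0.51 and 1.05 in controls. Its control 50K array in experiment B, at -0.01, was not among the high arrays, unlike that of Usp18, Ifih1 and Irf9. Both Stat2 probe sets were higher with MMP3 in 7 of 7 matched pairs of dishes, by as little as 0.05 for 1450403_at. The same held for Irf9, Ddx58 1456890_at and Usp18, though the Usp18 difference at 25K in experiment B rounds to 0.00. The share of all probe sets higher in every pair was not counted.

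Irf7, the factor that amplifies interferon production, moved least among the called members. It stood at 0.04, 0.12 and 0.26 with MMP3 in experiment A, against -0.31, -0.30 and -0.05 in controls, a change of 0.36 (SE 0.036), or 1.28-fold, with a limma adjusted p of 0.0312 (0.0592 with paired dishes). In experiment B it stood at -0.43, 0.57, -0.42 and 1.42 with MMP3, against -0.04, 0.49, -0.41 and 0.29 in controls. The MMP3 250K array of experiment B was the highest of the 14, and MMP3 was the higher of the pair at 2 of 4 densities.

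Irf1, a factor that interferon gamma is known to induce, stood at 0.75, 0.53 and 0.22 on the MMP3 arrays of experiment A, against -1.15, -1.39 and -0.82 on the control arrays. The change of 1.62 (SE 0.231) missed the threshold (limma adjusted p = 0.0511). In experiment B it stood at -0.55, 0.91, -0.22 and 0.42 with MMP3, against -0.42, 1.21, -0.81 and 0.90 in controls. There MMP3 was the lower of the pair at 3 of 4 densities, and the highest of all 14 arrays was a control, at 50K.

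Usp18 removes ISG15 from proteins and blocks the type I interferon receptor. It stood at 2.83, 4.43 and 4.11 on the MMP3 arrays of experiment A, against -2.84, -2.84 and -2.85 on the control arrays. The change was 6.63 (SE 0.443), or 99.3-fold, with a limma adjusted p of 0.0179. In experiment B it stood at -2.84, 5.18, -2.83 and 5.70 with MMP3, against -2.84, 3.56, -2.86 and 4.98 in controls. The 7 low arrays lie within 0.03 of each other, whichever agent they had, and MMP3 was above its control by 1.62 at 50K and 0.72 at 250K. The values give no signal over background, so whether the low arrays hold any Usp18 RNA is not known, and the fold is that of the deposited values.

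Socs1, an inhibitor of the JAK kinases, was flat. Its values ran from -0.02 to 0.01 over the 14 arrays, an SD of 0.009 that only 0.5% of probe sets lie below. The change in experiment A was -0.01 (SE 0.006, limma adjusted p = 0.213). A probe set without signal and a gene without change look alike in these values.

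**Figure D2:**
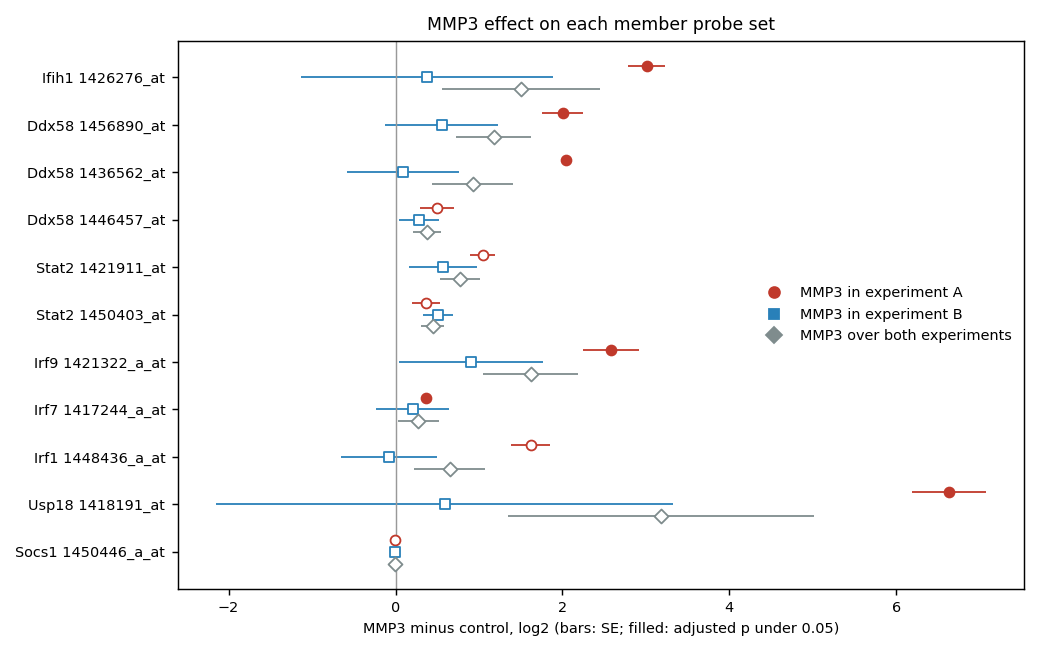
MMP3 minus control on the log2 scale (horizontal axis) for each member probe set, from the fits to experiment A, to experiment B and to both; bars are standard errors, and filled marks have an adjusted p under 0.05. In experiment A the changes run from -0.01 for Socs1 to 6.63 for Usp18; in experiment B the Usp18 change of 0.59 has an SE of 2.738.

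In experiment B no member passed, and no probe set did (0% of 45037, with 3622 at an unadjusted p under 0.05). Changes ran from -0.08 for Irf1 to 0.90 for Irf9 (SE 0.861, limma adjusted p = 1), with a median of 0.38. On none of the 11 did the groups separate. Of all probe sets, 2.68% had every MMP3 array above every control array and 2.9% had every one below. Among the 11 members, the probe set with the smallest p was Stat2 1450403_at, at 0.51 (SE 0.180, limma adjusted p = 0.535). Its values were 0.00, 0.77, 0.35 and 1.17 with MMP3, against -0.09, 0.00, 0.00 and 0.35 in controls. The standard error of Usp18, 2.738 in experiment B against 0.443 in experiment A, shows how wide the arrays of 1 agent lay.

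Over all 14 arrays, with the experiment as a block, no member passed, while 0.868% of all probe sets did. Members with the largest changes were Usp18 at 3.18 (SE 1.835, limma adjusted p = 0.717), Irf9 at 1.62 (SE 0.567, adjusted p = 0.271) and Ifih1 at 1.51 (SE 0.948, adjusted p = 0.795). The smallest adjusted p values were those of Stat2, 0.190 and 0.199, at changes of 0.45 (SE 0.138) and 0.77 (SE 0.242).

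Whether the MMP3 effect differed between experiments was tested on the 12 arrays at the shared densities, as A minus B. No member and no probe set passed (0% of 45037, with 3473 at an unadjusted p under 0.05). The difference was 5.85 for Usp18 (SE 3.691, limma adjusted p = 0.665), 1.98 for Ddx58 1436562_at (SE 0.919, adjusted p = 0.642) and 1.68 for Irf1 (SE 0.744, adjusted p = 0.642). With each MMP3 dish paired to the control dish of the same density and experiment, 1.29% of probe sets passed. These included Usp18, at 5.85 with an SE of 0.62 and a limma adjusted p of 0.0400, and Ddx58 1436562_at, at 1.98 with an SE of 0.24 and an adjusted p of 0.0456. The other 9 member probe sets did not pass with the pairs.

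**Figure D3:**
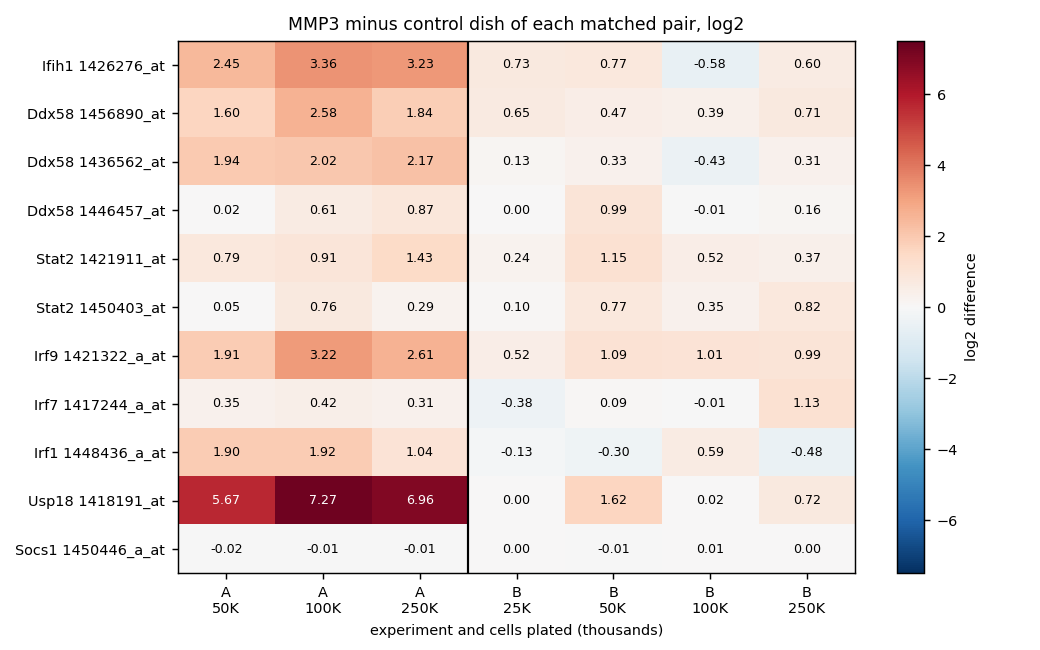
Difference between the MMP3 dish and the control dish of the same density and experiment (log2) for each member probe set, with 3 pairs in experiment A and 4 in experiment B. Usp18 differences are 5.67 to 7.27 in experiment A and 0.00 to 1.62 in experiment B.

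Plated density was tested as the log2 change per doubling of cells plated. No member passed in either experiment, and no probe set did (0% of 45037 in each, with 6004 in experiment A and 1280 in experiment B at an unadjusted p under 0.05). In experiment A the largest slope was that of Stat2 1421911_at, 0.31 per doubling (SE 0.080, limma adjusted p = 0.298), and its values rank by density within each agent. In experiment B the slopes were wider, up to 1.66 for Usp18 (SE 1.114, limma adjusted p = 0.918), where the arrays alternate between low and high from 25K to 250K.

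The other genes of the pathway in experiment A were taken from lists chosen with earlier results known, with 1 probe set a gene. They are read against the 5.58% of all probe sets that passed. A fit of only the most variable probe set of each gene called 1558 of 18193, a larger share. Of the interferon-induced effectors, 14 of 27 measured genes were higher with MMP3 and none lower, with a median change of 2.59. Among them Rtp4 changed by 7.28 (SE 0.52, limma adjusted p = 0.0192), Ifit1, which binds foreign RNA, by 6.61 (SE 0.34, adjusted p = 0.0146), Xaf1 by 5.33 and the GTPase Igtp by 4.94. Of the other sensors 3 of 15 were higher: Ddx60 by 3.04 (SE 0.41), the endosomal RNA receptor Tlr3 by 1.64 (SE 0.14) and Ifi204 by 1.57 (SE 0.17).

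Of 20 listed interferon genes only 9 were measured, and Ifne, Ifnk, Ifnl2 and Ifnl3 were among those not measured. None of the 9 passed in experiment A, and their changes lay between -0.03 and -0.01. As for Socs1, such flat values do not tell a gene without change from a probe set without signal. Of 6 receptor chains 2 were higher, Il10rb by 1.53 (SE 0.09) and Ifngr1, a chain of the interferon gamma receptor, by 0.51 (SE 0.04). None of 9 measured JAK and STAT genes passed. None of 16 adaptors and kinases passed. Of 8 other IRF genes and their partners none was higher and Irf2bpl was lower, at -0.92 (SE 0.11). Among 15 other feedback inhibitors 3 were higher, Socs6 by 0.62, Socs5 by 0.22 and Ptpn1 by 0.21, while Socs3, at -1.24 (SE 0.25, limma adjusted p = 0.094), did not pass. Of 6 genes of ISG15 conjugation 1 was higher, Herc6, an ISG15 ligase in mouse, by 1.51 (SE 0.09). No gene of these lists passed in experiment B, where the effectors had a median change of 0.09.

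**Figure D4:**
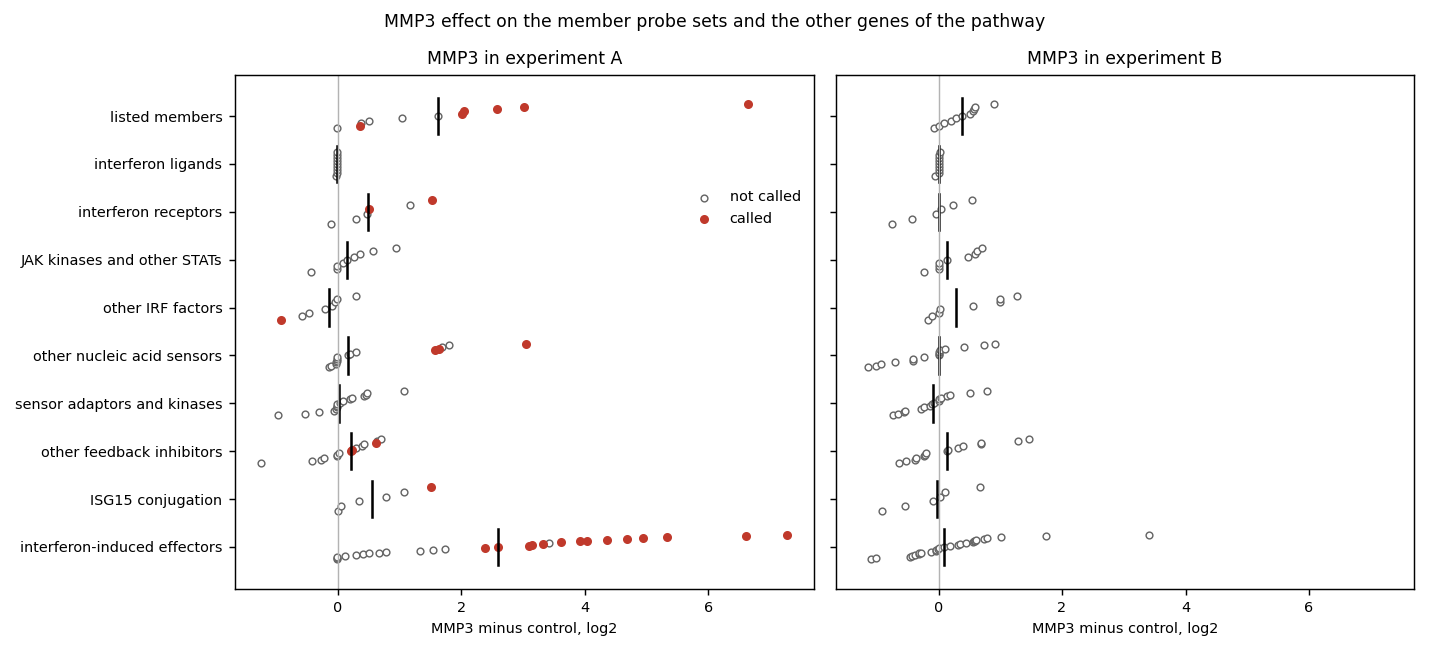
MMP3 minus control on the log2 scale (horizontal axis) for the 11 member probe sets and for each measured gene of the pathway lists (rows), in experiment A and in experiment B; vertical bars are medians and filled points have an adjusted p under 0.05. The median of the interferon-induced effectors is 2.59 in experiment A and 0.09 in experiment B, and the interferon genes lie at 0 in both.

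The genes most like each member were found by Pearson r over the 14 arrays among 18185 genes, as a description: these arrays share experiments, and for most members fall into a high and a low set. Usp18 was closest to Ifit1 (r = 0.998), Irgm2 (0.997) and Igtp (0.996), and Ifih1 to Trim12c (0.988), Parp12 (0.987) and Igtp (0.986). Irf9 was closest to Ifi27 (0.98), Ccdc126 (0.974) and Ifi35 (0.974), and Stat2 to Bst2 (0.955), Pgghg (0.949) and Trappc3 (0.949). For Ddx58 the closest were Gcc2 (0.981), Gab2 (0.98) and Tgm2 (0.977). Irf7 was nearest to Msantd4 (0.964), Kif13b (0.953) and Exd1 (0.93), and Irf1 to Cgn (0.97), Procr (0.956) and Slpi (0.953). Of the nearest genes, Ifit1, Igtp, Ifi35 and Bst2 are on the effector list. The nearest genes of Ddx58, Irf7 and Irf1, and the remaining ones of the other members, are on neither that list nor the sensor list. Those lists hold 28 and 16 genes, so absence from them does not say that a gene is not induced by interferon. The genes nearest to Socs1, Fam219aos (0.995), Ltc4s (0.994) and Vpreb3 (0.994), were as flat as Socs1, with ranges of 0.03 to 0.04. Between members, r was highest for Ddx58 and Irf9 (0.99) and for Ifih1 and Usp18 (0.98).

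Markers of cell types and of RNA quality were set beside these changes. In experiment A, 4 of 10 epithelial markers were higher with MMP3, among them Cldn4 by 2.49 and Epcam by 1.18, and Krt5 was lower, at -1.03. Krt8, Krt18, Krt19 and Cldn7 changed by only -0.02 to 0.08, and Krt14, at -0.38 (SE 0.29), did not pass. The mean of the epithelial list was 0.25 to 0.34 on MMP3 arrays, against -0.32 to -0.24 on control arrays. In experiment B that mean overlapped between agents, at -0.86 to 0.67 with MMP3 and -0.25 to 0.33 in controls. None of 10 macrophage markers passed in experiment A, and their mean there was -0.02 to -0.01 on MMP3 arrays, against 0.02 to 0.18 on control arrays. Of 7 dendritic and lymphoid markers only Bst2 passed in experiment A, which is also on the effector list. None of the 9 fibroblast, 7 endothelial and 5 adipocyte markers passed. The 3′ minus 5′ difference of Gapdh was 0.04 to 0.17 on MMP3 arrays of experiment A, against -0.03 to 0.03 on control arrays. That of actin overlapped, at -0.14 to 0.09 with MMP3 and -0.05 to 0.11 in controls. In experiment B the Gapdh difference was -0.02 to 0.06 with MMP3 and -0.06 to 0.14 in controls. The actin difference there was -0.12 to 0.65 with MMP3 and -0.34 to 0.08 in controls. The 18S control probe set was at 0.88 to 1.07 on MMP3 arrays of experiment A, against 0.72 to 0.81 on control arrays. On every array of experiment B it was lower than that, at -0.59 to -0.01 with MMP3 and -0.56 to 0.01 in controls. The part of these differences in the member changes, or in the differences between experiments, was not tested. Because the values are centred, no marker's presence or absence can be read from them.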

How the data were processed

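RNA (200 ng per array) of 14 dishes was measured on Affymetrix mouse expression arrays. The authors deposited log2 expression values that RMA produced, with no version named, per the submitters' processing notes. That the base is 2 and that each of 45101 probe sets has its median at 0 (within 5e-07) is not stated; the base is the one RMA gives, and the centring was seen in the values. For arrays, precision is limited by their number; signal over background is not known.

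Of 45037 probe sets that are not controls, 34945 had 1 gene symbol, 932 several and 9160 none. All 45037 were fitted with limma 3.58.1 in R 4.3.3 (lmFit, eBayes, Benjamini-Hochberg, threshold 0.05, no filter). Agent and centred log2 density were terms, with experiment as a block over both experiments. Folds are 2 to the power of the change. The smallest residual degrees of freedom were 3, in experiment A. Members and gene lists were chosen with earlier results of these data known. Every member is named, then up to 4 called genes a list with the largest change, the 3 genes most like each member, and control probe sets; Socs3, Bst2 and the epithelial genes named were chosen after their values were seen. A gene with several probe sets is shown by the one with the largest SD.

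Data were simulated with 200 of 45037 probe sets changed. The experiment A fit recovered 67% of changes of 1 and 84% of changes of 2 (log2), with 8 false among 159 calls. The experiment B fit recovered 61% and 75%, with 9 false among 145. The changed probe sets were drawn at random from all, each with its own residual spread. These shares therefore do not give the recovery for members with a wide spread, such as Usp18 in experiment B (SE 2.738). The experiment letter serves as the replicate name. The labels mark the letters as separate experiments, so experiment is a block; deviations from the group means correlated at 0.05 on average over 15 pairs of labels (range -0.65 to 0.64).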

Additional observations from a re-analysis of the deposited data

How the results depend on the processing

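Alternatives were run for each comparison, and every one that leaves out an array names it as agent and density. In experiment A the 2515 probe sets called became 4947 with a filter on low SD (at the 40th percentile), 1558 with 1 probe set a gene, 1640 without a density term, 1006 with density as a factor, and 0 to 1079 with 1 array left out. The 6 member probe sets called became 2 with density as a factor and 0 to 3 with 1 array left out (0 without control 50K or control 100K, 3 without control 250K, 1 without MMP3 50K or MMP3 250K, 2 without MMP3 100K). The change itself moved little: that of Usp18 stayed between 6.30 and 7.15 with 1 array left out. In experiment B the 0 probe sets called became at most 1, without control 100K or MMP3 100K. Over both experiments 391 became 722 with the SD filter, 233 with 1 probe set a gene, 230 with arrays re-centred, 0 without a density term, 0 with no replicate block, 14 with the replicate block by matched pair, and 0 to 1152 with 1 array left out. For the difference between experiments 0 became 580 with the replicate block by matched pair, 2 of them members, and 0 to 233 with 1 array left out (233 without control 100K of experiment B). Density slopes gave 0 calls in every alternative run. Of 139 values of single members in experiment A, 89 kept their side of the threshold and direction, 41 fell short of the threshold, 8 passed it and 1 changed sign (Socs1, with arrays re-centred). In experiment B 18 of 161 changed sign, and over both experiments none of 249 changed call or sign. Density as a factor also pairs the dishes of experiment A; beyond that and the 2 members above, the replicate block changed no call of a member. The cause of these moves was not tested.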

Other observations

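Of the 11 member probe sets, 8, 10 and 10 were above 0 on the MMP3 arrays of experiment A at 50K, 100K and 250K, against 1, 2 and 1 on the control arrays. In experiment B the counts at 25K, 50K, 100K and 250K were 3, 10, 3 and 10 on MMP3 arrays, against 1, 7, 1 and 10 on control arrays. The array medians of the members in experiment B were -0.53, 1.0, -0.42 and 1.42 with MMP3, against -0.42, 0.53, -0.72 and 0.90 in controls. Over the pathway lists, 70 of 110 measured genes had opposite signs of the MMP3 change in experiment A and experiment B. Of all probe sets, 26.8% had a change above 0 in experiment A and 64.8% in experiment B. Signs therefore differ for many probe sets outside the lists too, and that share was not counted. Of the 24 that passed in experiment A, 16 had the opposite sign in experiment B, where none passed. Examples, chosen after their values were seen, are Tlr3 at 1.64 in experiment A and -1.15 (SE 1.28) in experiment B, and Irgm1 at 3.62 and -1.09 (SE 2.15). Ifi204 stood at 1.57 and -1.01 (SE 1.19), and Herc6 at 1.51 and -0.92 (SE 1.23). Each of these changes in experiment B is smaller than its SE. No probe set passed the unpaired test of the difference between experiments, and with matched pairs the limma adjusted p was 0.324 for Tlr3, 0.303 for Ifi204 and 0.367 for Herc6. Precision is limited by 1 array for each agent and density in an experiment, and by centred values that show no level.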
